A study of Rattus norvegicus with 38 samples.

Results

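The genes of the aryl hydrocarbon receptor pathway described here were 8 of the 14217 genes measured in rat lung, covered by 10 of the 20826 probe sets that carry 1 gene symbol. They were chosen by name, as probe sets annotated with exactly 1 of the symbols Cyp1a1, Cyp1a2, Cyp1b1, Aldh3a1, Ahrr, Tiparp, Ahr and Arnt. The probe set with the highest mean stood for each gene, and Ahr and Tiparp each had 1 further probe set. Lungs came from female rats, 34 weeks old, of 2 lines of the N:NIH stock, one bred for high (HCR) and the other for low (LCR) intrinsic exercise capacity. The animals breathed cigarette smoke or, as sham controls, room air on 5 days per week for 12 weeks. Each line had 7 sham animals and 12 smoke animals. An Affymetrix Rat Genome 230 2.0 array was run per animal, with RNA of roughly 25 mg of lung. Array LCR sham 0445 carried no strain, age or sex label of its own and shared the growth description of the others. The numbers in the sample titles lie in a range of their own in each group, and the labels do not say what they stand for. If they follow an order of handling, that order and group cannot be told apart.

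The aryl hydrocarbon receptor, AHR, is a ligand-activated transcription factor that rests in the cytosol with HSP90 and other chaperones. Polycyclic aromatic hydrocarbons, which tobacco smoke contains, bind it, and it then moves to the nucleus, pairs with ARNT and binds DNA at xenobiotic response elements. Cytochrome P450 genes of the CYP1 family are its best known targets, and the products of 2 other targets, Ahrr and Tiparp, repress the receptor in turn.

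The core of the xenobiotic response element reads GCGTG, and a longer form of it reads TNGCGTG. Each longer match contains a core match. Both were searched, on both strands, in the 250 bases before the start used for each promoter, for the RefSeq genes of the build GRCr8. Of the 8 genes, 6 had such a sequence and Cyp1a1 and Aldh3a1 did not. Among the 6, that start was the annotated gene start except for Cyp1b1. Of all 33469 promoters of the same length, 25.9% held the core at least once, 8.12% at least 2 times, 2.58% at least 3 times, and 4.09% held the longer form. Ahrr held 3 cores, Cyp1b1 2, Tiparp 1 and Arnt 1, and 1 of the cores of Ahrr and 1 of those of Cyp1b1 were of the longer form. Cyp1a2 and Ahr held none in this window, which says only that these letters are not there. The sequences of 3 genes that rose with smoke in both lines or in LCR, and of Cyp1a2, are shown 5′ to 3′ in the direction of the gene, with each core in capitals. A core on the opposite strand reads CACGC. The windows lie at chr1:30821969-30822218 on the plus strand for Ahrr, chr6:21094315-21094564 on the plus strand for Cyp1b1, chr2:152063519-152063768 on the plus strand for Tiparp and chr8:66978150-66978399 on the minus strand for Cyp1a2. The window of Cyp1b1 lies inside the span annotated for that gene, which begins at base 21093927, and the other windows end just before the annotated gene.
Ahrr: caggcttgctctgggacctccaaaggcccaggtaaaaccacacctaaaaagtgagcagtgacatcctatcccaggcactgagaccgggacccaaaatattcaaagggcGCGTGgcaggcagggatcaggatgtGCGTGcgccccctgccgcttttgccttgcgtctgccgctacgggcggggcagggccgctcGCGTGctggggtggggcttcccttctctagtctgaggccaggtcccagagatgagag
Cyp1b1: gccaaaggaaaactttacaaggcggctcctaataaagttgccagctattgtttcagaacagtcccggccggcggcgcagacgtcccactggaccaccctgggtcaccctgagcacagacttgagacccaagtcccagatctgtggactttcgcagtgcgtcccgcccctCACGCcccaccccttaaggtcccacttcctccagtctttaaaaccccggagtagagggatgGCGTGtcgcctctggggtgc
Tiparp: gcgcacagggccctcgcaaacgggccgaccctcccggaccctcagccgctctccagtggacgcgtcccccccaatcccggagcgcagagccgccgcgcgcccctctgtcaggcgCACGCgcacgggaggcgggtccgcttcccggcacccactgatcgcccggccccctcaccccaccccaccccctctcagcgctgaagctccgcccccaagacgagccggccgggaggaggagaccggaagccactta
Cyp1a2: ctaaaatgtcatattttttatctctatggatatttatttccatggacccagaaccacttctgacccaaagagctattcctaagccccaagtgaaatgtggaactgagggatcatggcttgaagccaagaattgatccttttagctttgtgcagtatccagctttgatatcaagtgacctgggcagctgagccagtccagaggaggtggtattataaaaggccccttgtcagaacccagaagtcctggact
In Ahrr the cores begin 142, 117 and 57 bases before the start, and the last of them is of the longer form. In Cyp1b1 positions count back from the last base of the window, taken as 1, and not from the first base of the annotated span. There the core on the opposite strand spans positions 81 to 77, and the longer form ends at position 16.

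Intensities on these arrays ran from 2.09 to 11560 and are linear values, so each change is a difference between group means of log2(intensity + 16), given ± its standard error. On that scale the change of a dim gene is understated, and precision is limited by how many arrays there were. Marker genes of lung tissue were bright in all 4 groups: the mean intensity of Sftpc, a surfactant gene of type 2 cells, lay between 10225 and 10683, and that of Ager, of type 1 cells, between 3841 and 5032. A set of 6 arrays, HCR sham 0433, LCR sham 0442 and HCR smoke 0410, 0414, 0415 and 0417, had the highest muscle marker means. The mean of the skeletal muscle list was 4.58 above the average array on HCR sham 0433, and that of the heart list was 3.59 above it on LCR sham 0442 and 1.45 to 3.50 above it on the 4 HCR smoke arrays. Next by the heart list came HCR sham 0432, at 1.11, so no wide gap sets these arrays off. On HCR sham 0432 the 3′ probe set of Gapdh exceeded the 5′ probe set by 1.20 on the log2 scale, a sign of RNA breakdown, against 0.03 to 0.30 on the other HCR sham arrays. In whole tissue, fewer cells of a type and less RNA per cell cannot be told apart. With smoke, 6 of 10 measured macrophage markers rose and 3 fell in HCR, and 7 rose and 2 fell in LCR. The mean over that list ran from -0.61 to -0.19 in HCR sham, -0.21 to 0.57 in HCR smoke, -0.90 to -0.42 in LCR sham and 0.02 to 0.86 in LCR smoke. Endothelial markers fell in both lines, 10 of 11 in each, as did markers of alveolar type 1 cells, 8 of 8 in HCR and 7 of 8 in LCR. Of 10 type 2 cell markers 3 rose and 1 fell in HCR and 7 rose in LCR. Smooth muscle and pericyte markers fell for 4 of 10 in HCR and 8 of 10 in LCR, and B cell markers for 1 of 5 and 5 of 5. Of 7 neutrophil markers 3 rose in HCR and 4 in LCR, and none fell. Of 10 T and NK cell markers 1 rose in HCR, and 5 fell in LCR. Over all genes 17.7% rose and 30.4% fell in HCR, and 22.7% rose and 27.9% fell in LCR, and some of these counts are near those shares. The part of these cell types in the results that follow was not tested.

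Smoke raised 5 of the 8 genes in HCR and 6 in LCR at an adjusted p under 0.05 in limma, and lowered none of them. Over all genes 48.0% passed in HCR, 17.7% upward and 30.4% downward, and 50.6% passed in LCR, 22.7% upward and 27.9% downward. The median change of the 8 genes was 0.99 in HCR and 1.19 in LCR, against -0.03 and -0.00 over all genes. Cyp1a1, Cyp1b1, Aldh3a1 and Ahrr changed most, and in both lines no smoke array of these 4 genes overlapped with a sham array. How many of all genes separated in this way was not counted. Cyp1a2 rose slightly in both lines, Tiparp passed the test in LCR and not in HCR, and Ahr and Arnt passed in neither.

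**Figure D1:**
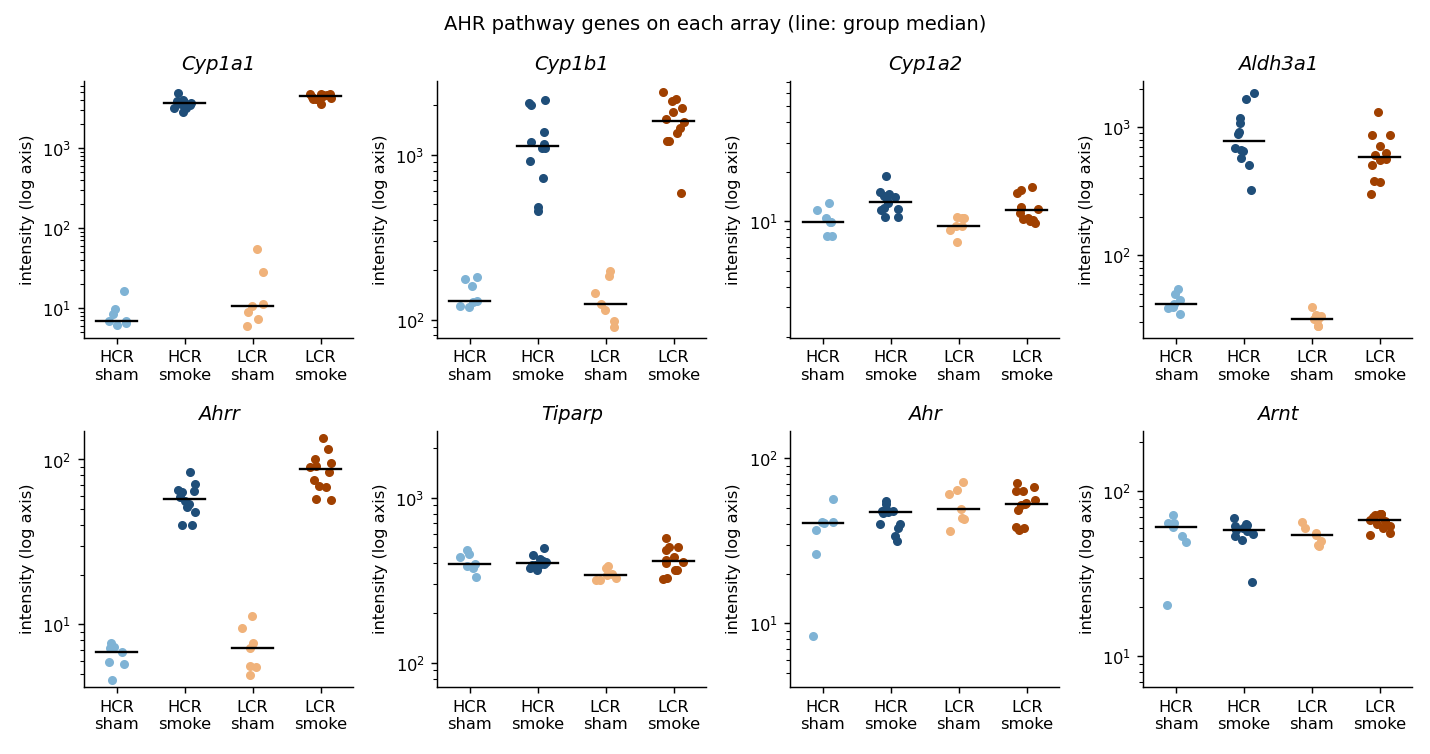
Intensity of each of the 8 genes on each of the 38 arrays, on a log axis, by group, with 1 point per animal and a line at the group median. Cyp1a1, Cyp1b1, Aldh3a1 and Ahrr separate smoke from sham in both lines, while the groups overlap for Cyp1a2, Tiparp, Ahr and Arnt.

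Cyp1a1, a monooxygenase that oxidises polycyclic aromatic hydrocarbons, had an intensity of 6.20 at the lowest, 6.98 at the median and 16.4 at the highest of the HCR sham arrays. In HCR smoke it ran from 2803 through a median of 3612 to 4881. The LCR sham arrays lay at 5.96, 10.7 and 54.7 (lowest, median, highest), and the LCR smoke arrays at 3538, 4406 and 4732. All smoke arrays were far above all sham arrays, and among the sham arrays LCR 0443 (54.7) and LCR 0440 (28) were the highest. The rise was 7.19 ± 0.14 in HCR (adjusted p = 2.29e-31 in limma) and 7.13 ± 0.14 in LCR (adjusted p = 3.18e-31), on this scale the largest change among the 14217 genes in either line. Most sham values lay below the 16 units added before the logarithm, so the size of the change depends on that addition. With 1 unit added the rise was 8.59 and 8.23, and with 64 it was 5.65 and 5.77. The ratio of mean intensities was 414 in HCR and 241 in LCR, where the sham mean includes LCR 0443.

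Cyp1b1, which oxidises polycyclic hydrocarbons and oestrogens and is largely an enzyme of tissues outside the liver, was measurable without smoke. Its intensity was 118, 130 and 181 in HCR sham (lowest, median, highest) and 457, 1124 and 2132 in HCR smoke. In LCR it was 90.5, 125 and 198 in sham and 583, 1603 and 2392 in smoke. The lowest smoke arrays, HCR 0416 and LCR 0423, still lay above every sham array. Smoke animals spread widely: the coefficient of variation of Cyp1b1 was 47.1% in HCR smoke and 31.1% in LCR smoke, against 14.5% and 7.86% for Cyp1a1. The rise was 2.80 ± 0.25 in HCR (adjusted p = 3.67e-10 in limma) and 3.39 ± 0.25 in LCR (adjusted p = 1.06e-12), on this scale the sixth largest change in each line.

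Cyp1a2, the CYP1 enzyme best known from liver, was dim in all groups. HCR sham arrays lay at 8.08, 9.93 and 12.9 and HCR smoke arrays at 10.6, 13.2 and 18.7 (lowest, median, highest). The LCR values were 7.44, 9.34 and 10.6 in sham and 9.81, 11.6 and 16.1 in smoke, and the groups overlapped in both lines. The rise of 0.16 ± 0.05 in HCR (adjusted p = 0.00585 in limma) and 0.14 ± 0.05 in LCR (adjusted p = 0.0182) passed the test. Of the 2659 genes with a mean intensity under 16, 25.9% rose in HCR and 22.3% in LCR, and 5% and 5.79% of them rose by at least as much as Cyp1a2. On smoke arrays the log2 values spread less: their interquartile range was 2.74 to 2.94 in HCR and 2.79 to 3.0 in LCR, against 2.94 to 3.04 and 2.97 to 3.04 on sham arrays, with some overlap in LCR. In HCR every smoke array lay below every sham array in that range, so the fit separates that range poorly from smoke. With that range as a covariate the change was -0.01 in HCR (adjusted p = 0.899) and 0.03 in LCR (adjusted p = 0.632), and without LCR sham 0440 the LCR change was 0.12 with an adjusted p of 0.0537.

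Aldh3a1, a dehydrogenase that oxidises aldehydes from lipid peroxidation and smoke, had intensities of 34.9, 41.7 and 54.2 in HCR sham and 322, 782 and 1861 in HCR smoke (lowest, median, highest). In LCR the values were 28, 31.7 and 39.7 in sham and 303, 587 and 1314 in smoke. No smoke array overlapped with a sham array, and HCR smoke 0416 and LCR smoke 0426 were the lowest of the smoke arrays. The rise was 3.82 ± 0.24 in HCR (adjusted p = 2.79e-14 in limma) and 3.66 ± 0.24 in LCR (adjusted p = 5.49e-14), on this scale the second and the third largest of all genes. HCR smoke 0415, the highest array, was 1 of the 6 arrays with high muscle markers. The lowest value over the settings tried was 3.05 in HCR and 2.78 in LCR, both with 64 units added.

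**Figure D2:**
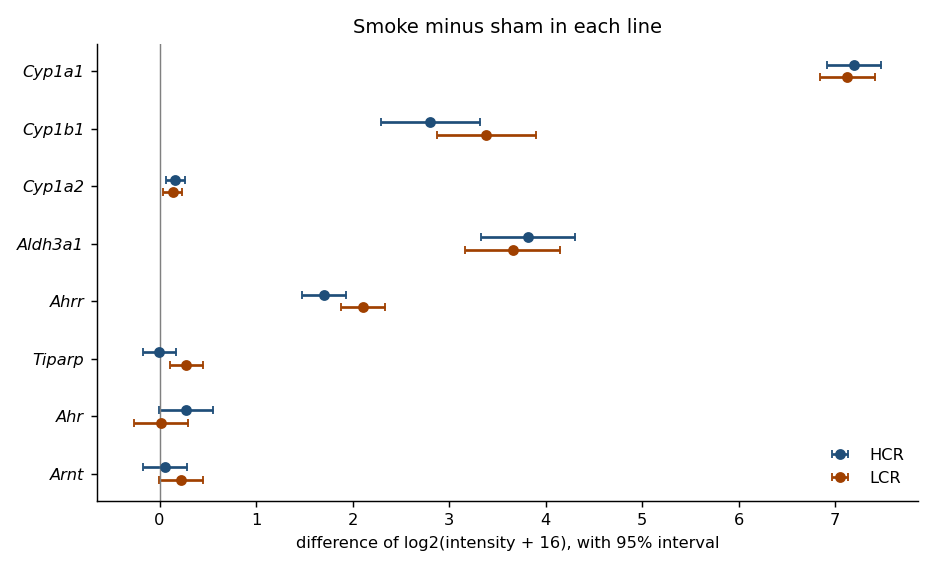
Smoke minus sham difference of log2(intensity + 16) for each gene in HCR and LCR, with the 95% interval of the limma fit. Cyp1a1 stands at 7.19 and 7.13, and the intervals of Ahr and Arnt include 0 in both lines, as does that of Tiparp in HCR.

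The amount of Aldh3a1 differed between smoke animals, and it went with markers of the conducting airway. Among the 12 HCR smoke arrays it correlated with the mean of 7 club cell markers (Pearson r = 0.89, permutation p = 7e-05, adjusted p = 0.00149; Spearman rho = 0.86, permutation p = 0.00074, adjusted p = 0.0118). Club cells are the secretory cells of the small airways. Of the 10 markers listed for them, Cyp2f4, Cyp2a3, Cyp2b1 and Aldh1a1 are themselves P450 or aldehyde dehydrogenase genes. Among the 12 LCR smoke arrays r was 0.97 (permutation p = 1e-05, the smallest the resamples can give, adjusted p = 0.00064) and rho was 0.93 (permutation p = 4e-05, adjusted p = 0.00256). With the mean of 5 ciliated cell markers r was 0.89 in HCR (permutation p = 7e-05, adjusted p = 0.00149) and rho 0.91 (permutation p = 0.0001, adjusted p = 0.0032). In LCR r was 0.82 (permutation p = 0.00069, adjusted p = 0.011), while rho, 0.73 (permutation p = 0.00954), had an adjusted p of 0.102. Without the 2 arrays farthest from the median of the marker mean, r was 0.82 and 0.92 for club cells and 0.80 and 0.69 for ciliated cells, HCR before LCR.

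These were 4 of 64 relations computed between the 8 genes and 4 marker lists (club, ciliated, macrophage and endothelial cells), with p adjusted over the 64. By r these 4 passed, and by rho 5 did, 3 of them shared. The other 2 that passed by rho were Aldh3a1 with macrophage markers in LCR (rho = -0.87, permutation p = 0.00054, adjusted p = 0.0115; r = -0.73, permutation p = 0.00702, adjusted p = 0.0802) and Cyp1b1 with endothelial markers in HCR (rho = -0.81, permutation p = 0.00202, adjusted p = 0.0259; r = -0.71, permutation p = 0.01, adjusted p = 0.0802). Without the 2 farthest arrays these r were -0.59 and -0.76. When HCR smoke 0410, 0414, 0415 and 0417, the 4 with high muscle markers, were left out, r over the other HCR smoke arrays was 0.77 for club and 0.76 for ciliated markers, each with an adjusted p of 0.244 by permutation. Among the 7 sham arrays of a line none of 8 such relations of Aldh3a1 passed an exact permutation test: r with club cell markers was -0.17 in HCR (p = 0.717; rho = -0.11, p = 0.84) and 0.38 in LCR (p = 0.386; rho = 0.64, p = 0.139), and the smallest unadjusted p of the 8 was 0.209 by r and 0.139 by rho. The sham relations were added after the smoke values were seen.

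The change of the airway lists themselves with smoke is given beside this. Of 7 measured club cell markers 1 rose and 1 fell in HCR, and 4 fell in LCR. Of 5 ciliated cell markers 1 fell in HCR and 3 in LCR. Over all genes 17.7% rose and 30.4% fell in HCR, and 22.7% rose and 27.9% fell in LCR. The part of airway cells in the rise of Aldh3a1 was not tested. The club cell mean ran from -0.73 to 0.95 in HCR sham, -0.72 to 1.06 in HCR smoke, -0.03 to 1.48 in LCR sham and -1.05 to 0.57 in LCR smoke, so that sham and smoke overlapped. The ciliated cell mean ran from -0.41 to 0.63, -0.52 to 0.85, -0.02 to 0.93 and -0.61 to 0.40 in the same order.

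**Figure D3:**
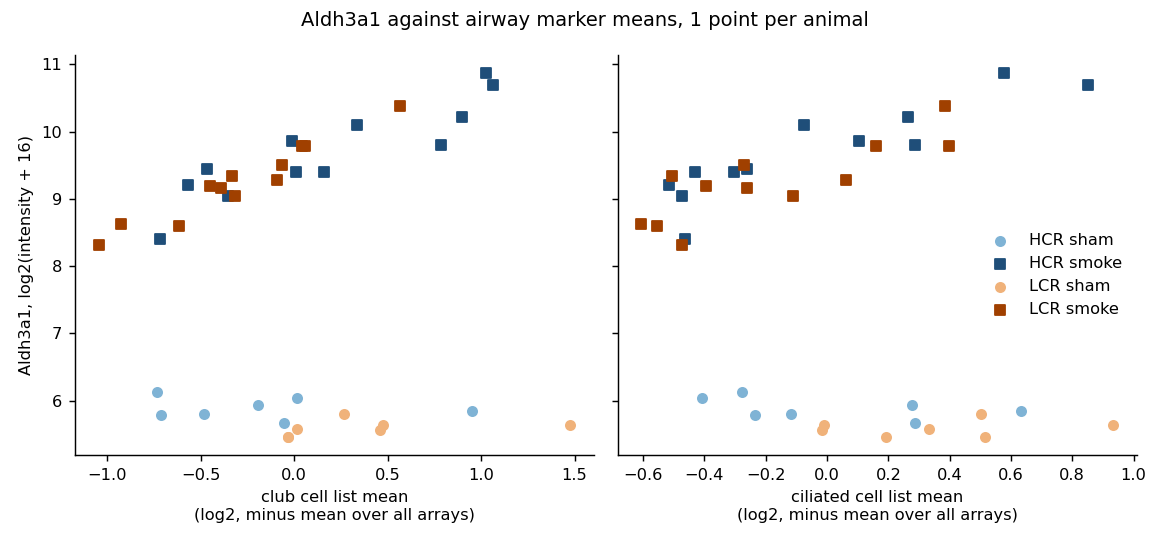
Aldh3a1 as log2(intensity + 16) against the mean of the club cell markers (left) and of the ciliated cell markers (right), 1 point per animal, with each marker taken relative to its mean over all arrays. Smoke arrays lie above all sham arrays at every marker mean and slope upward (r of 0.89 and 0.97 with club cell markers in HCR and LCR), while the sham arrays show no such slope that passed a test.

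Ahrr, the AHR repressor, competes with AHR for ARNT. Its intensity was 4.61, 6.84 and 7.73 in HCR sham and 39.9, 57.5 and 84.3 in HCR smoke (lowest, median, highest). In LCR it was 4.97, 7.15 and 11.3 in sham and 57.0, 87.1 and 134 in smoke. Smoke and sham arrays did not overlap in either line, and every sham array lay below 16. The rise was 1.70 ± 0.11 in HCR (adjusted p = 5.95e-14 in limma) and 2.11 ± 0.11 in LCR (adjusted p = 1.5e-16). With 1 unit added before the logarithm the rise was 2.96 and 3.39, and with 64 units 0.79 and 1.06.

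Tiparp, a mono-ADP-ribosyltransferase that marks AHR for loss, was expressed in all groups. Its intensity was 331, 393 and 484 in HCR sham and 367, 399 and 494 in HCR smoke (lowest, median, highest). In LCR it was 316, 341 and 387 in sham and 319, 410 and 570 in smoke, where 8 of 12 smoke arrays lay above all sham arrays. The change was -0.00080 ± 0.08 in HCR (adjusted p = 0.995 in limma) and 0.28 ± 0.08 in LCR (adjusted p = 0.00656). The difference between these changes, 0.28 ± 0.12, had an adjusted p of 0.195, so the lines were not shown to differ. The other probe set of Tiparp gave 0.14 ± 0.14 in HCR (adjusted p = 0.435 over all probe sets) and 0.25 ± 0.14 in LCR (adjusted p = 0.137), the same direction in LCR without passing.

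Ahr, the receptor gene itself, changed little. Its intensity was 8.39, 40.4 and 56.8 in HCR sham and 31.4, 47.2 and 54.9 in HCR smoke (lowest, median, highest), and 36.5, 49.2 and 71.8 in LCR sham and 36.7, 53.2 and 70.6 in LCR smoke. All groups overlapped, and the lowest and the highest HCR sham arrays were 0432, with the signs of RNA breakdown, and 0433, with muscle markers. The change was 0.27 ± 0.14 in HCR (adjusted p = 0.103 in limma) and 0.02 ± 0.14 in LCR (adjusted p = 0.923). The HCR value rested on single sham arrays: it was 0.10 (adjusted p = 0.492) without 0432 and 0.36 (adjusted p = 0.0315) without 0433. It passed as well without the 6 arrays with muscle markers (0.40, adjusted p = 0.0392) and as a mean of both probe sets (0.21, adjusted p = 0.0229), and it was 0.02 (adjusted p = 0.875) with the Gapdh difference as a covariate. The second probe set of Ahr was dim, with group medians from 8.57 to 11.3, and rose by 0.14 ± 0.04 in HCR (adjusted p = 0.00854) and 0.13 ± 0.04 in LCR (adjusted p = 0.0128), in an intensity range where 25.9% and 22.3% of genes rose.

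Arnt, the partner that AHR shares with the hypoxia-inducible factors, had intensities of 20.6, 60.5 and 71.8 in HCR sham and 28.2, 58.7 and 68.6 in HCR smoke (lowest, median, highest). In LCR they were 46.3, 54.2 and 65.3 in sham and 54.0, 66.6 and 73.3 in smoke. The groups overlapped, and the arrays far below the others, HCR sham 0432 and HCR smoke 0412, had the largest Gapdh 3′ minus 5′ differences of their groups (1.20 and 0.39). The change was 0.06 ± 0.11 in HCR (adjusted p = 0.678 in limma) and 0.22 ± 0.11 in LCR (adjusted p = 0.0929). The LCR change passed the test without HCR sham 0432, which enters through the shared spread (adjusted p = 0.022), with median-centred arrays (0.28, adjusted p = 0.0283), with quantile normalization (0.29, adjusted p = 0.032), with array weights (adjusted p = 0.012) and with only the 2 LCR groups in the fit (adjusted p = 0.00391). With the Gapdh difference as a covariate the HCR change was -0.18 (adjusted p = 0.0208).

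The lines were compared next, under sham and under smoke, and none of the 8 genes passed the test between LCR and HCR under sham, where 3.73% of all genes did (1.39% higher and 2.34% lower in LCR). At an unadjusted p under 0.05 there were 3 (Cyp1a1, Ahr and Tiparp). Under smoke 1 of 8 passed, Ahrr, which was higher in LCR, against 6.32% of all genes (4.61% higher and 1.70% lower in LCR). There, 4 (Cyp1a1, Cyp1b1, Aldh3a1 and Ahrr) had an unadjusted p under 0.05. The smoke change did not pass as different between the lines for any of the 8, against 1.87% of all genes (1.52% more positive and 0.352% more negative in LCR), and 2 (Ahrr and Tiparp) had an unadjusted p under 0.05. The share of all genes with an unadjusted p under 0.05 was not counted. All of these p are from limma, with 1 spread per gene shared by the sham and smoke groups of both lines.

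Ahrr was higher in LCR than in HCR under smoke by 0.46 ± 0.10 (95% interval 0.26 to 0.65, adjusted p = 0.00335 in limma). Of 12 LCR smoke arrays, 11 lay above the HCR smoke mean and 6 above every HCR smoke array, and the groups overlapped. Under sham the difference was 0.05 ± 0.12 (adjusted p = 0.885), and the smoke change was larger in LCR by 0.41 ± 0.16 (95% interval 0.09 to 0.72), with an adjusted p of 0.147. The difference under smoke passed under every setting tried, with values from 0.30 to 0.56, and when any single array was left out, with values from 0.40 to 0.50.

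The CYP1 enzymes did not pass between the lines. Cyp1a1 was higher in LCR by 0.28 ± 0.12 under smoke (95% interval 0.04 to 0.52, adjusted p = 0.14 in limma) and by 0.35 ± 0.16 under sham (adjusted p = 0.234). The smoke changes of Cyp1a1 differed by -0.07 (95% interval -0.47 to 0.33, adjusted p = 0.894). Cyp1b1 was higher in LCR under smoke by 0.48 ± 0.22 (95% interval 0.04 to 0.92, adjusted p = 0.171), and its smoke changes differed by 0.58 ± 0.36 (95% interval -0.14 to 1.31, adjusted p = 0.386). Cyp1a1 passed under smoke without LCR sham 0443 (0.28, adjusted p = 0.0386), with 64 units added (0.28, adjusted p = 0.0161) and with only the 2 smoke groups in the fit (0.28, adjusted p = 0.012), and Cyp1b1 passed with array weights (0.62, adjusted p = 0.0189). Cyp1a2 differed by -0.06 ± 0.04 under smoke (adjusted p = 0.357).

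Aldh3a1 lay on the other side, lower in LCR by 0.46 under smoke on the log2 scale (value -0.46 ± 0.21, 95% interval -0.88 to -0.03, adjusted p = 0.17 in limma) and by 0.29 under sham (value -0.29 ± 0.27, adjusted p = 0.633). Of 7 LCR sham arrays 6 lay below every HCR sham array. The standard error and p under sham use the spread shared by all 4 groups. The standard deviation of the log2 values of Aldh3a1 was 0.16 in HCR sham and 0.12 in LCR sham, against 0.70 and 0.58 in smoke. The spread of the smoke arrays thus widens the standard error given under sham, and a fit of the sham arrays alone is not given here. Without the 6 arrays with muscle markers the smoke difference was -0.16 (adjusted p = 0.705). Beside this, the median club cell mean of the smoke arrays was 0.08 in HCR and -0.33 in LCR, and its part in the difference was not tested. Ahr was higher in LCR under sham by 0.45 ± 0.16 (95% interval 0.13 to 0.76, adjusted p = 0.101). That difference was 0.54 (adjusted p = 0.0404) without HCR sham 0433 and 0.28 without HCR sham 0432. Tiparp was lower in LCR under sham (value -0.24 ± 0.09, adjusted p = 0.166) and Arnt was at 0.02 ± 0.13 (adjusted p = 0.954). Under smoke the differences were 0.20 ± 0.12 for Ahr (adjusted p = 0.309), 0.19 ± 0.10 for Arnt (adjusted p = 0.227) and 0.04 ± 0.07 for Tiparp (adjusted p = 0.772).

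**Figure D4:**
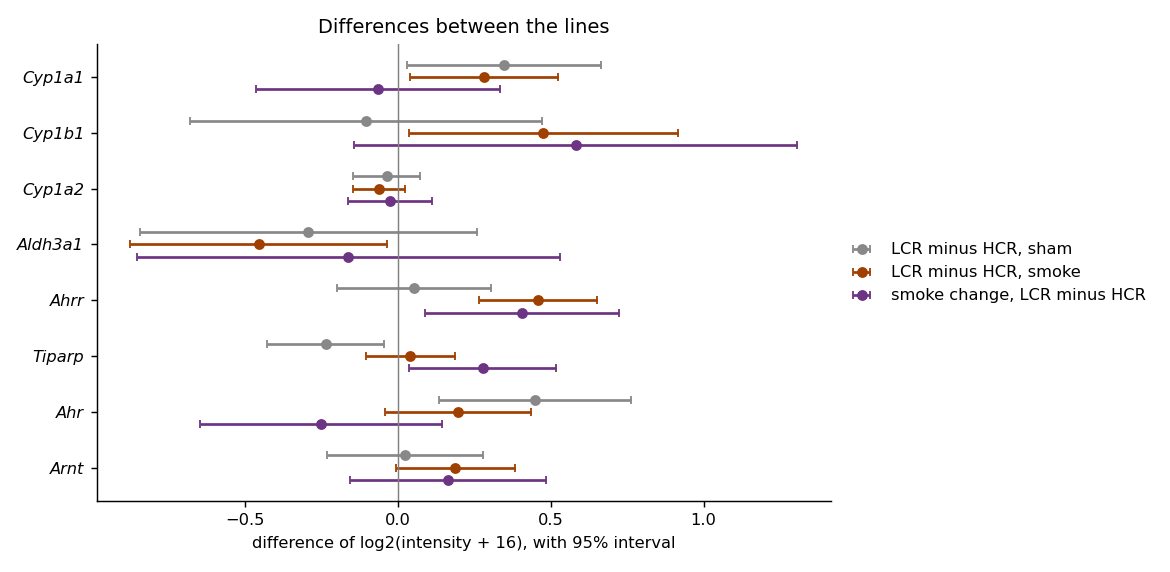
LCR minus HCR difference of log2(intensity + 16) under sham and under smoke, and the difference between the smoke changes (LCR minus HCR), for each gene with the 95% interval of the limma fit. After adjustment over all genes Ahrr under smoke (0.46) was the 1 difference that passed.

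The 8 genes did not rise and fall together from animal to animal in a way that passed a test. Of 56 correlations between pairs of them (28 pairs among the 12 smoke arrays of each line), none passed by r or by rho over the 56, and the smallest adjusted p was 0.0614 by r and 0.0883 by rho. At an unadjusted permutation p under 0.05 there were 13 by r and 11 by rho. The pairs with the smallest adjusted p by r were Cyp1b1 with Aldh3a1 in HCR (r = 0.82, permutation p = 0.00129, adjusted p = 0.0614; rho = 0.73, permutation p = 0.00953, adjusted p = 0.101), Ahrr with Tiparp in HCR (r = 0.76, permutation p = 0.00329, adjusted p = 0.0614; rho = 0.80, permutation p = 0.00277, adjusted p = 0.0883) and Cyp1a1 with Tiparp in LCR (r = 0.75, permutation p = 0.00323, adjusted p = 0.0614; rho = 0.78, permutation p = 0.00371, adjusted p = 0.0883). Without the 2 farthest arrays r was 0.66, 0.47 and 0.74 in that order. With quantile normalization the first and the second of these passed (r = 0.82 and 0.78, adjusted p = 0.0437 by permutation). HCR smoke 0413 was the highest array of its group for Cyp1a1, Cyp1b1, Ahrr and Tiparp, and LCR smoke 0423 was the lowest of its group for the same 4 genes.

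The genes whose residual pattern was most like each of the 8 are given as a description over the 38 arrays, after the group mean was taken from each value. The arrays share the tissue piece and the RNA, so these likenesses carry no test. For Cyp1b1 they were Gclc (r = 0.84), Txnrd1 (0.83) and Srxn1 (0.83), which take part in glutathione and thioredoxin chemistry. For Aldh3a1 they were Wdpcp (r = 0.85), Entpd5 (0.84) and Ift80 (0.84), of which Wdpcp and Ift80 serve the building of cilia. For Cyp1a1 the highest r was 0.61, with Vwa7, followed by Col23a1 (0.55) and Upb1 (0.52). Ahrr was most like Tnfrsf11a (r = 0.78), Pprc1 (0.78) and Litaf (0.76), and Tiparp most like Rab31 (0.83), Tbc1d8 (0.82) and Il4r (0.81). Ahr was most like Gnaq (r = 0.85), Lin7c (0.84) and Atf2 (0.83), and Arnt most like Adam9 (0.90), Akirin2 (0.89) and Slc30a1 (0.88). Cyp1a2 was most like Mettl7b (r = 0.79), Mt3 (0.78) and Gpr12 (0.74).

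Other genes described as AHR targets were followed as a list, and 20 of 25 were measured. In HCR 8 rose and 2 fell, and in LCR 13 rose and 4 fell, against 17.7% and 22.7% of all genes that rose. The median of the list was 0.30 in HCR and 0.36 in LCR. The examples with the smallest p were Nqo1, a quinone reductase, at 2.34 ± 0.12 (adjusted p = 2.19e-17 in limma) in HCR and 1.98 ± 0.12 (adjusted p = 3.21e-15) in LCR, Nfe2l2, the gene of the oxidant-responsive factor NRF2, at 0.68 and 0.66, and Ptgs2, the inducible cyclooxygenase, at 1.32 and 1.63. Nqo1 is also a target of NRF2. The 2 falls in HCR became 1 without any 1 of HCR sham 0433, 0436 and 0439 and HCR smoke 0410, 0414, 0415 and 0418. The list was chosen with earlier results of these arrays known and is not independent evidence.

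For the lists that follow, the shares to read the counts against are those over all genes, 17.7% rising and 30.4% falling in HCR and 22.7% and 27.9% in LCR. Chaperones hold AHR in the cytosol. The list of that complex had 7 measured genes, among them Src, a kinase and not a chaperone. Of the 7, 1 rose and 2 fell in HCR, and 1 rose and 1 fell in LCR. The counts in LCR became 2 without LCR sham 0446 (rises) and without LCR sham 0440 or 0441 (falls). Fkbp5, an HSP90 co-chaperone, rose in LCR by 0.91 ± 0.23 (adjusted p = 0.00137 in limma) and was at -0.44 ± 0.23 in HCR (adjusted p = 0.117). Its smoke changes differed by 1.35 ± 0.33 (adjusted p = 0.0286), and under sham it was lower in LCR (value -1.02 ± 0.26, adjusted p = 0.0187). The difference of the changes had an adjusted p of 0.0635, 0.0551, 0.0541 and 0.0515 without HCR sham 0434, 0435 and 0436 and LCR sham 0445, in that order, with values of 1.22, 1.25, 1.31 and 1.32, and the sham difference had an adjusted p of 0.0629 (value -0.89) and 0.0531 (value -0.92) without HCR sham 0434 and 0435. Src fell in both lines (values -0.27 and -0.23) and was the 1 fall in LCR, and Cdc37 fell in HCR (value -0.19).

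Of 12 coactivators and corepressors 1 rose and 4 fell in HCR and 1 rose and 5 fell in LCR, with falls in HCR near the share over all genes. Kat2b, a histone acetyltransferase, fell (values -0.28 and -0.34, HCR before LCR), as did Med1 (-0.20 and -0.26), while Ncoa1 fell in LCR (-0.30, adjusted p = 0.000708 in limma) and was at -0.14 in HCR (adjusted p = 0.094). Without HCR sham 0432 the HCR falls became 2 and Med1 was at -0.13 (adjusted p = 0.0549), and without HCR sham 0436 the HCR rises became 2. Of 15 measured bHLH-PAS factors, the family to which AHR, AHRR and ARNT belong, 2 rose and 5 fell in HCR and 3 rose and 4 fell in LCR, Ahrr included. Npas2, a clock factor, fell by 1.12 and 1.26 on the log2 scale, Epas1 fell by 0.09 and 0.15, and Arnt2 by 0.32 and 0.47, HCR before LCR. The rises in LCR became 1 without LCR sham 0440, LCR sham 0443, LCR smoke 0423 or LCR smoke 0424.

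Of 20 P450 genes of families 2 to 4, 3 rose and 8 fell in each line, against 17.7% and 30.4% of all genes in HCR and 22.7% and 27.9% in LCR. Cyp4b1, abundant in lung, was lower with smoke by -0.60 ± 0.09 in HCR and -0.81 ± 0.09 in LCR (adjusted p = 2.25e-06 and 6.58e-09 in limma). Cyp2c23 rose by 0.43 and 1.03, and Cyp2t1 fell (values -0.49 and -0.31). Of 8 genes that pass electrons to P450 enzymes 1 rose and 4 fell in HCR and 2 rose and 1 fell in LCR. Cyb5a, cytochrome b5, rose by 0.28 and 0.45, the reductase gene Cyb5r3 fell (values -0.41 and -0.31), and Cyb5r4 fell in HCR (value -0.20) and was at -0.08 in LCR (adjusted p = 0.121).

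Among 17 aldehyde dehydrogenases 3 rose and 9 fell in HCR and 4 rose and 5 fell in LCR, Aldh3a1 included among the rises. Aldh7a1 rose in LCR by 0.42 ± 0.06 (adjusted p = 4.21e-07 in limma) and was at 0.08 ± 0.06 in HCR (adjusted p = 0.267). Its smoke changes differed by 0.34 ± 0.08 (adjusted p = 0.0315), with an adjusted p of 0.067, 0.0546, 0.0634 and 0.0605 and values of 0.31, 0.34, 0.32 and 0.31 without HCR sham 0434, HCR sham 0436, LCR sham 0441 and LCR sham 0445. Aldh1a3, which makes retinoic acid, fell (values -0.42 and -0.92), and Aldh3a2, next of kin of Aldh3a1, fell too (values -0.29 and -0.13). The LCR fall of Aldh3a2 had an adjusted p of 0.056, 0.0704, 0.0631, 0.0579 and 0.0577 without LCR sham 0440, 0443 and 0444 and LCR smoke 0422 and 0423, with values from -0.12 to -0.11, and the falls in LCR became 3 without LCR sham 0444.

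Of 13 ADP-ribosyltransferases, the family of TIPARP, 1 rose and 4 fell in HCR and 3 rose and 3 fell in LCR, Tiparp included, counts near the shares over all genes. Parp1 rose by 0.19 in each line, and Parp2 (values -0.24 and -0.21) and Tnks2 (values -0.17 and -0.20) fell, and without LCR smoke 0424 the falls in LCR became 5. Kynurenine and other products of tryptophan are AHR ligands of the body's own making. Of 11 enzymes that act on tryptophan or its products 2 rose and 4 fell in HCR and 1 rose and 3 fell in LCR. Ddc fell (values -0.76 and -0.67) as did Kyat3 (values -0.54 and -0.45), and Qprt rose in HCR by 0.35 (adjusted p = 3.22e-05 in limma) and was at 0.08 in LCR (adjusted p = 0.318). The 1 rise in LCR became 2 without any 1 of HCR sham 0434, HCR sham 0439, HCR smoke 0416, HCR smoke 0419, LCR sham 0441, LCR sham 0446, LCR smoke 0425 and LCR smoke 0428.

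The small changes in these lists depended on the processing. In HCR the interquartile range was lower on every smoke array than on every sham array, so the fit separates it poorly from smoke. The cause of a call lost with that covariate was not tested. Once each array's interquartile range entered the fit, 11 named genes no longer passed in HCR. Kat2b (value -0.23, adjusted p = 0.0657 in limma), Aldh1a3 (-0.32, adjusted p = 0.224), Qprt (0.19, adjusted p = 0.0559) and Aldh3a2 (-0.12, adjusted p = 0.0521) were among them, with Src (-0.11), Parp2 (-0.11), Cyb5r4 (-0.10), Med1 (-0.08), Arnt2 (-0.08), Tnks2 (-0.08) and Cdc37 (-0.07). In LCR the same covariate left Src at -0.14 (adjusted p = 0.12), Parp2 at -0.13 (adjusted p = 0.0589) and Aldh3a2 at -0.02 (adjusted p = 0.766). It took the falls of aldehyde dehydrogenases and of coactivators in HCR from 9 and 4 to 0 and 0. With quantile normalization those falls were 5 and 1, and the HCR falls of P450 electron transfer partners went from 4 to 2. Under that normalization Med1 (value -0.12, adjusted p = 0.109 in limma) and Aldh1a3 (value -0.33, adjusted p = 0.0543) no longer passed in HCR. Without the 6 arrays with muscle markers the HCR falls of Med1 (value -0.16, adjusted p = 0.0788 in limma), Arnt2 (value -0.16, adjusted p = 0.208) and Aldh1a3 (value -0.29, adjusted p = 0.113) no longer passed, and the difference of the Fkbp5 changes was 1.51 (adjusted p = 0.0522). With median-centred arrays Epas1 in HCR (value -0.05, adjusted p = 0.2) and Aldh3a2 in LCR (value -0.07, adjusted p = 0.172) no longer passed, rises of bHLH-PAS factors in LCR went from 3 to 7, and those of the P450 genes of families 2 to 4 went from 3 to 6 in each line. As a mean over a gene's probe sets, Med1 (-0.15, adjusted p = 0.112), Epas1 (-0.11, adjusted p = 0.243), Arnt2 (-0.09, adjusted p = 0.178) and Tnks2 (-0.08, adjusted p = 0.113) did not pass in HCR, nor did Epas1 in LCR (-0.18, adjusted p = 0.0618), and the values of Epas1 were larger than those of its single probe set.

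**Figure D5:**
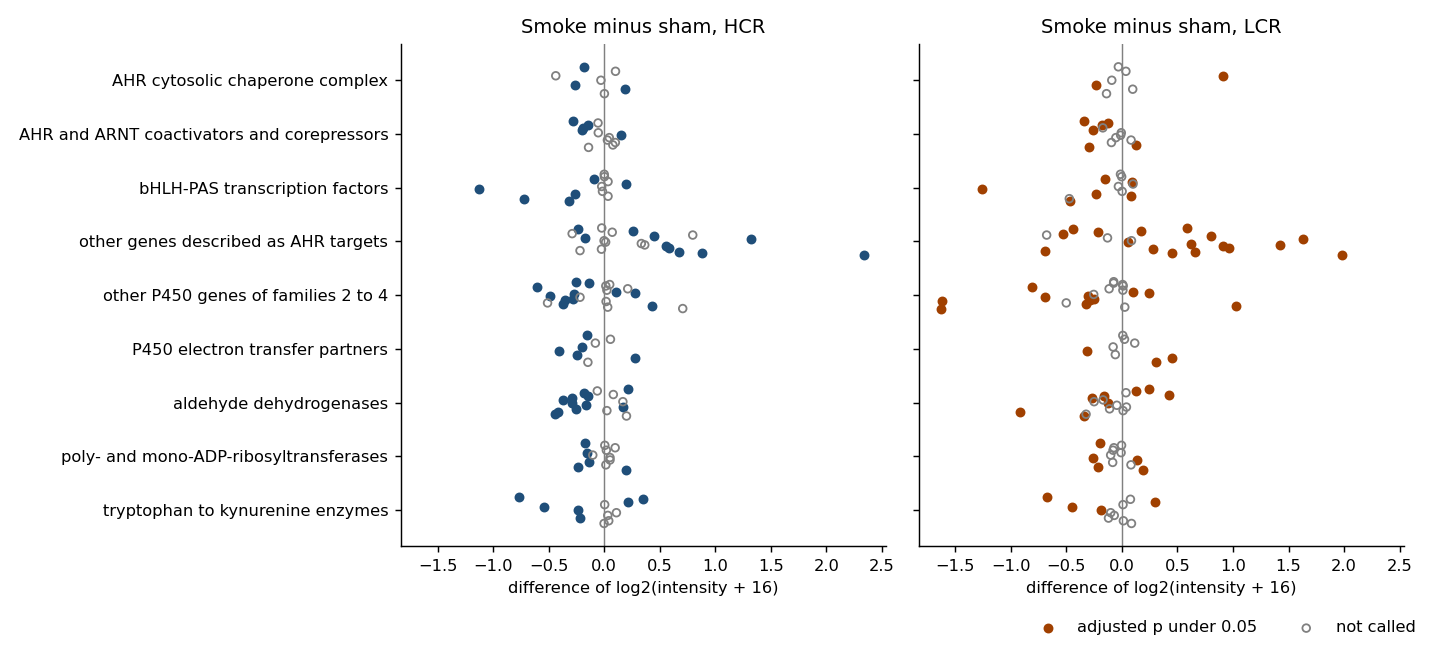
Smoke minus sham difference of log2(intensity + 16) in HCR (left) and LCR (right) for the measured genes of each list, without the 8 pathway genes, 1 point per gene. Filled points passed at an adjusted p under 0.05 in limma and open points did not, and the list of other AHR targets reaches 2.34 in HCR and 1.98 in LCR with Nqo1.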

How the data were processed

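RNA was purified with RNeasy reagents and biotin-labelled, per the labels' protocols. The table the authors deposited holds linear intensity values for 31099 probe sets on 38 arrays, and the sources used here do not give the software that summarised and normalized them. Of these, 57 were controls, 20826 had 1 symbol, 436 several and 9780 none in the platform annotation. Values were used as log2(intensity + 16), with the highest-mean probe set of each gene, without further normalization. The 4 group means were fitted with limma 3.58.1 (lmFit, eBayes, two-sided) in R 4.3.3 across the 38 arrays (34 residual degrees of freedom), and p was adjusted by Benjamini-Hochberg over 14217 genes (threshold 0.05). Correlations used two-sided permutation tests with 100000 resamples, exact for 7 arrays, run under Python 3.11.15 (SciPy 1.17.1, pandas 2.3.3, NumPy 2.4.6). Figures were drawn with matplotlib 3.10.9. The fit was tested on simulated data.

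The 8 genes and the lists were chosen with earlier results of these data known. Named from each list were up to 3 genes by smallest p among those that passed, and for likeness the 3 genes with the highest r. Alternatives were other normalizations, pseudocounts, filters, probe set rules, variance models, covariates, and arrays left out.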

Additional observations from a re-analysis of the deposited data

Results flagged for a closer look

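Within groups of 7 sham arrays, the highest or lowest array stood far from the rest by Dixon's rule (gap over range above 0.568, taken on log2(intensity + 16)) in 6 of 70 gene and group pairs tested, 2 of them among 16 pairs of the 8 pathway genes. Chance gives about 1 in 20. Intensities are given here and the ratio of gap to range is on the log2 scale. Cyp1a1 had an intensity of 16.4 on HCR sham 0433 against 6.20 to 9.61 on the other HCR sham arrays (gap over range 0.623). Arnt had 20.6 on HCR sham 0432 against 49.5 to 71.8 (0.665). On the same array Src had 224 against 145 to 162 (0.758), Cyb5a 1600 against 1780 to 1880 (0.659) and Cyb5r4 423 against 481 to 527 (0.588). Cyp2c23 had 87.4 on HCR sham 0439 against 132 to 155 (0.708).

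The smoke change differed between the lines, in the limma interaction, for Fkbp5 by 1.35 (adjusted p = 0.0286) and for Aldh7a1 by 0.343 (adjusted p = 0.0315), both more positive in LCR. Of the 8 pathway genes none passed that test in limma. Their smallest adjusted p was 0.147, and 2 had an unadjusted p under 0.05.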

How the results depend on the processing

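Over 13 other settings, 491 of 507 single-gene comparisons of the 8 pathway genes kept their side of the threshold, 18 of them with a changed sign of a value that passed neither way (Tiparp in HCR went from -0.00080 to as high as 0.17). Of the others 1 lost its call, 13 gained one and 2 changed sign with a call on one side. Over 38 single arrays left out, 1515 of 1520 kept their side of the threshold, 22 of them with such a change of sign. The 2 with a call were Arnt in HCR with the Gapdh covariate (-0.18, adjusted p = 0.0208 in limma) and Cyp1a2 in HCR with the interquartile range covariate (-0.011, adjusted p = 0.899, called without it), and the cause was not tested. Genes passing between lines under sham went from 0 to 1 (Ahr) with array weights and without the 6 arrays with muscle markers. Under smoke they went from 1 to 2 with 64 units added, array weights, or only the groups compared. For the difference of the smoke changes they went from 0 to 1 with array weights (Tiparp) and the Gapdh covariate (Arnt). Correlated pairs went from 0 to 2 with quantile normalization (Cyp1b1 with Aldh3a1 and Ahrr with Tiparp in HCR), and relations to marker lists from 4 to 2 without the 4 HCR smoke arrays. The cause was tested for none of these. With 1 array left out the counts ran from 5 to 6 (smoke in HCR), 5 to 7 (smoke in LCR), 0 to 1 (lines under sham), 1 to 2 (lines under smoke) and 0 to 0 (difference of the changes).

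Over all genes, 6830 passed for smoke in HCR and 3024 with the interquartile range covariate, a range that the fit separates poorly from smoke in HCR. Between lines under sham 531 passed, against 816 median-centred, 946 with array weights, 830 with the interquartile range covariate and 233 with only the groups compared, and 314 to 830 with 1 array left out. Under smoke 898 passed, against 2860 with array weights, 366 with the interquartile range covariate and 487 without the 6 arrays. For the difference of the changes 266 passed, against 552 median-centred, 1537 with array weights, 562 with the Gapdh covariate and 58 without the 6 arrays, and 81 to 768 with 1 array left out. Cyp1a2 is not in the filtered set of genes (intensity of at least 32 on at least 7 arrays). No paired analysis was possible because the numbers in the sample titles are unique and no 2 groups share one. Dim signals in sham limit the size given for Cyp1a1, Ahrr and Cyp1a2.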
